A study of Mus musculus with 9 samples.

Results

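A group of 8 genes of cholesterol synthesis and its transcriptional control was followed across the gastrocnemius libraries: Srebf2, Insig1, Hmgcs1, Idi1, Fdps, Fdft1, Sqle and Lss. They were chosen by gene symbol from 23238 symbols in the count files, and all 8 of 8 were present and passed the filter on low counts, which kept 12859 genes in all. The muscles came from female C57BL/6 mice, an inbred strain, aged 4 weeks by their labels, with 3 libraries in each of 3 groups. RP mice were given 100 mg/kg RP by mouth for 9 days together with cisplatin, a platinum chemotherapy agent that damages DNA, injected 4 times into the peritoneum at 3 mg/kg. Cisplatin mice had the same 4 injections with water by mouth, and Normal mice had saline injections with water. No group received RP without cisplatin, the labels do not spell out RP beyond the series title's extract of Paeonia lactiflora, and nothing states that each library came from a different mouse, so the p-values reflect only how far these libraries spread, which may be technical.

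Cells make cholesterol from acetyl-CoA through mevalonate, isoprenoid diphosphates, squalene and lanosterol. SREBP2, the protein of Srebf2, is a membrane-bound transcription factor of the endoplasmic reticulum: when sterols run low its escort SCAP carries it to the Golgi, where proteases free the part that enters the nucleus and switches on the enzymes of the pathway, while INSIG proteins hold it back when sterols are plentiful. The pathway also supplies farnesyl and geranylgeranyl groups for proteins, dolichol and the tail of ubiquinone, the mitochondrial electron carrier. In skeletal muscle it is best known from statins, drugs that lower its output and whose side effects include muscle pain and weakness.

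Library totals were 8196030 to 10678342 counts. Fibre genes were abundant in every group: the 10 muscle fibre markers summed to 129400 to 149800 CPM in RP, 91720 to 114800 CPM in Cisplatin and 116900 to 136400 CPM in Normal. CPM values are read counts brought to a common library size after TMM scaling, a correction for composition. Counts come from 3′ tags, so levels are compared between groups for 1 gene and not between genes. Fold changes are edgeR estimates ± SE with p-values adjusted by the Benjamini-Hochberg method over the 12859 genes, and a gene is called where its adjusted p is under 0.05.

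Cholesterol synthesis genes did not move as a block in cisplatin-treated muscle. Of the 8 genes, 4 fell in Cisplatin against Normal (Hmgcs1, Idi1, Fdps and Lss), Fdft1 rose, and Srebf2, Insig1 and Sqle were not called. Of all genes tested in this comparison 28.2% fell and 26.3% rose, so that about as many genes moved each way. The 8 genes had a median log2 fold change of -0.77, against -0.08 over all genes. The Cisplatin libraries lay below all Normal libraries for 4 of the 8 genes, as for 31.9% of all genes, and above them for 1, as for 30.3% of all genes. In RP against Cisplatin, which shares the Cisplatin libraries with that comparison, 3 of the 8 genes rose (Hmgcs1, Idi1 and Fdps), where 24.6% of all genes did, and Fdft1 fell, where 24.2% did. The median of the 8 was 0.48 there and 0.07 over all genes. RP libraries lay above all Cisplatin libraries for 4 of the 8 genes, as for 29.0% of all genes, and below them for 1, as for 27.8%.

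**Figure D1:**
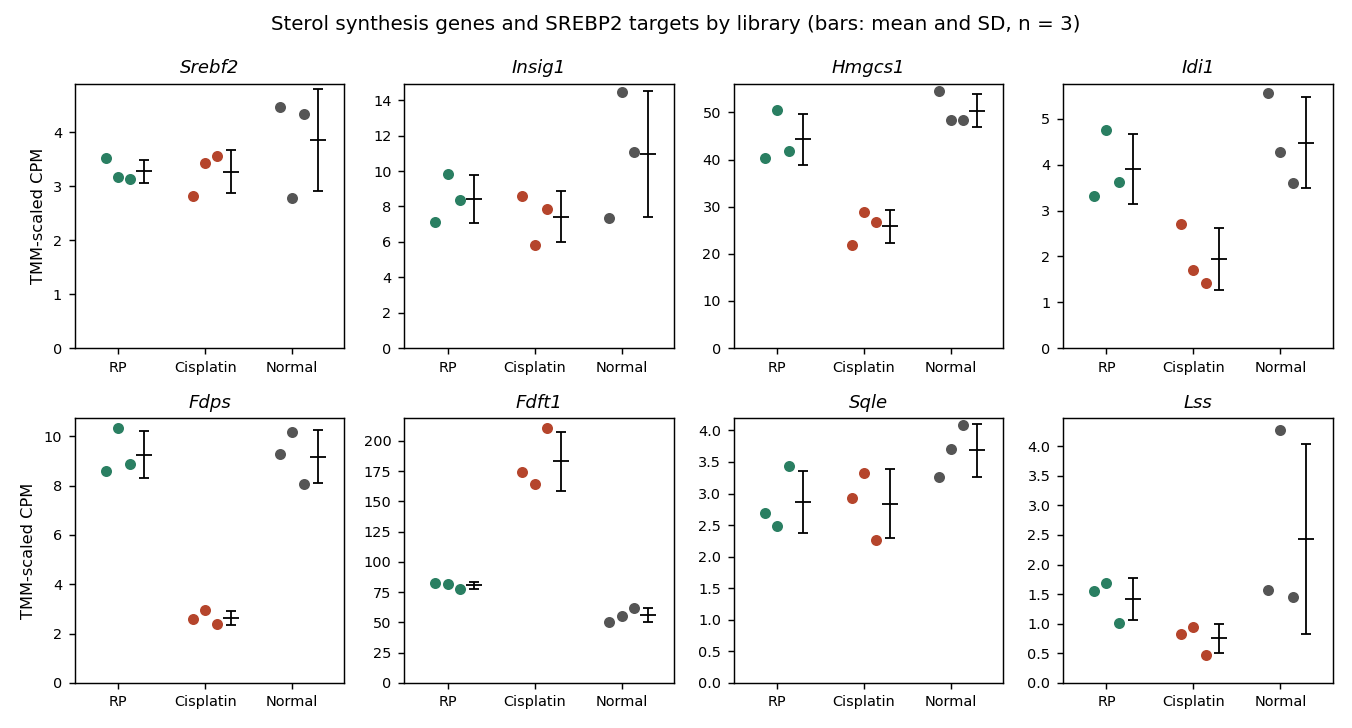
TMM-scaled CPM (y axis, from 0) of the 8 genes in each library of RP, Cisplatin and Normal (x axis), with points for libraries and bars for the mean and SD of 3. Fdps and Hmgcs1 are lowest in the 3 Cisplatin libraries and Fdft1 is highest in them, while the groups of Srebf2 and Insig1 overlap.

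Neither regulator among the 8 was called in any comparison. Srebf2, on chromosome 15 (82147181 to 82205379, plus strand, GRCm38), had 3.51, 3.18 and 3.13 CPM in RP, 2.82, 3.42 and 3.57 CPM in Cisplatin and 4.47, 2.78 and 4.33 CPM in Normal. The 3 groups overlapped, and a single Normal library was the lowest of all 9. Its log2 fold change was -0.24 ± 0.33 in Cisplatin against Normal (adjusted p = 0.565, 95% interval -0.93 to 0.46) and lay at 0 in RP against Cisplatin (95% interval -0.60 to 0.60, adjusted p = 1). Srebf2 had 24 to 37 counts per library, and those intervals leave room for a change in either direction. The parts of depth and of spread between libraries in their width were not tested. An intron of Srebf2 also carries the microRNA gene Mir33, whose processed product a polyadenylated 3′ tag library does not measure.

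Insig1, whose protein retains the SCAP and SREBP2 complex in the endoplasmic reticulum and whose gene is itself an SREBP target, lies on chromosome 5 (28071363 to 28078662, plus strand). It had 7.13, 9.83 and 8.37 CPM in RP, 8.58, 5.80 and 7.85 CPM in Cisplatin and 7.37, 14.5 and 11.1 CPM in Normal. The groups overlapped, with Normal replicate 1 below 2 of the Cisplatin libraries. The log2 fold change was -0.57 ± 0.27 in Cisplatin against Normal (adjusted p = 0.0882) and 0.19 ± 0.27 in RP against Cisplatin (adjusted p = 0.575). Without Normal replicate 1 the first of these was called, at -0.78 with an adjusted p of 0.0266, and without Normal replicate 2, the highest library, it was -0.31 with an adjusted p of 0.387.

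The genes of the mevalonate and isoprenoid steps were those with the clearest drop in Cisplatin. Hmgcs1, the cytosolic HMG-CoA synthase of an early step, lies on chromosome 13 (119690379 to 119708260, plus strand). It had 40.4, 50.5 and 41.9 CPM in RP, 22.0, 28.9 and 26.7 CPM in Cisplatin and 54.5, 48.3 and 48.4 CPM in Normal. Each Cisplatin library was below each library of both other groups, which overlapped each other. Hmgcs1 fell in Cisplatin against Normal by 0.96 ± 0.15 on the log2 scale (adjusted p = 0.000125) and rose in RP against Cisplatin by 0.77 ± 0.15 (adjusted p = 0.000831).

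Idi1 encodes the isomerase that turns isopentenyl diphosphate into dimethylallyl diphosphate, the starter of isoprenoid chains. It lies on chromosome 13 (8885501 to 8892451, plus strand) and had 3.31, 4.77 and 3.63 CPM in RP, 2.70, 1.71 and 1.43 CPM in Cisplatin and 5.56, 4.28 and 3.61 CPM in Normal. All Cisplatin libraries were the lowest, although they rest on 12 to 23 counts each. Idi1 fell by 1.20 ± 0.37 in Cisplatin against Normal (adjusted p = 0.0134) and rose in RP against Cisplatin, with a mean of 3.90 ± 0.77 CPM in RP and 1.95 ± 0.67 CPM in Cisplatin (SD, n = 3 each) and a 95% interval of 0.22 to 1.79 on the log2 scale (adjusted p = 0.0358). The first call was lost without Normal replicate 1 (adjusted p = 0.063), and the second without Cisplatin replicate 2 (0.102) or 3 (0.112) or RP replicate 2 (0.123) or 3 (0.0532), with no filter on low counts (0.0509), and with the 2 compared groups fitted alone (0.0532).

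Fdps, farnesyl diphosphate synthase, stands where the pathway divides between sterols and the isoprenoids that modify proteins. It lies on chromosome 3 (89093588 to 89101959, minus strand) and had 8.58, 10.3 and 8.88 CPM in RP, 2.59, 2.95 and 2.38 CPM in Cisplatin and 9.30, 10.2 and 8.06 CPM in Normal. The RP and Normal libraries covered nearly the same range, and no Cisplatin library came near it. Fdps fell by 1.79 ± 0.24 in Cisplatin against Normal (adjusted p = 3.94e-05), which is 3.46-fold lower, and rose by 1.80 ± 0.24 in RP against Cisplatin (adjusted p = 5.04e-05). The predicted gene Gm43738, not analysed here, runs along Fdps on the same strand with an exon in its last 500 bases, so reads of the pair cannot be told apart there.

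Promoter sequence was at hand for 5 of the 8 genes, from RefSeq on GRCm38.p6, as 250 bases before and 50 after the gene start. That gene start is the one the windows were built on, and it differs from the GENCODE first base printed for each gene. The sterol regulatory element, the DNA motif SREBP2 binds, was searched as TCACNCCAC on both strands, together with CCAAT for the cofactor NF-Y and GGGCGG for the cofactor Sp1; no motif contains another. Hmgcs1 alone of the 5 held the sterol element letters, as TCACCCCAC starting 137 bases before the gene start, where 1.24% of 32851 mouse promoters of the same length hold a match. All 5 held the NF-Y letters, as 37.4% of promoters do, and the Sp1 letters, as 35.7% do, with 4 NF-Y matches in Hmgcs1. A match describes letters only, and a missing one says no more than that they are not in this window. Hmgcs1 and Idi1 are shown as genes that fell in Cisplatin with and without the sterol element letters, and Insig1 as a target that was not called; capitals mark matches to the sterol element and to NF-Y. All 3 lie on the plus strand, at chr13:119690101-119690400, chr13:8885356-8885655 and chr5:28071162-28071461.
Hmgcs1: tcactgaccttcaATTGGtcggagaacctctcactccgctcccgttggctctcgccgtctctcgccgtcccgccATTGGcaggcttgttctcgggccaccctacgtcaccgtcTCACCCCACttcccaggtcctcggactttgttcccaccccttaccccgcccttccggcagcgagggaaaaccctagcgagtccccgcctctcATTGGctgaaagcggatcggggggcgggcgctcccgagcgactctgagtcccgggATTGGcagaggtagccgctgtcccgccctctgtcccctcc
Idi1: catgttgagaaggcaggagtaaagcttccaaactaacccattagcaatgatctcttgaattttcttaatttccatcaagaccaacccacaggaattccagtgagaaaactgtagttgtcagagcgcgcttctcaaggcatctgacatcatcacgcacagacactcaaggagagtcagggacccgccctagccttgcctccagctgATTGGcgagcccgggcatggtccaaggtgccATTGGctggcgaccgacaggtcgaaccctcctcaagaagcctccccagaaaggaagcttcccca
Insig1: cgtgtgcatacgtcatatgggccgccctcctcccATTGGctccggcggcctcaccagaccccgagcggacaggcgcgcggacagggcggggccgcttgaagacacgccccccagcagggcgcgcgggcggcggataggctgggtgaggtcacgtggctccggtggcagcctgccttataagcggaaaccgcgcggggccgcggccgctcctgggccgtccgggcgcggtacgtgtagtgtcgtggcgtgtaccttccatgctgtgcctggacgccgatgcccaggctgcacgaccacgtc

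The squalene steps differed from one another. Fdft1, squalene synthase, joins farnesyl groups in the first step that serves sterols alone. It lies on chromosome 14 (63145150 to 63179578, minus strand) and had 82.7, 81.9 and 77.3 CPM in RP, 174, 164 and 211 CPM in Cisplatin and 50.5, 55.0 and 62.2 CPM in Normal. The 3 groups did not overlap, with RP between the other two. Fdft1 rose 3.27-fold in Cisplatin against Normal, by 1.71 ± 0.14 on the log2 scale (adjusted p = 4.68e-07), and fell by 1.18 ± 0.13 in RP against Cisplatin (adjusted p = 1.34e-05). It was higher in all 3 RP libraries than in all 3 Normal libraries, at 0.53 ± 0.13, without being called (adjusted p = 0.113).

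The 3′ end of Fdft1 runs into that of Ctsb, the lysosomal protease cathepsin B, which is transcribed from the opposite strand and has an exon within the last 500 bases of Fdft1. The strand setting of the counting is not given in the sources used here. Ctsb had 217, 261 and 189 CPM in RP, 196, 219 and 206 CPM in Cisplatin and 178, 247 and 214 CPM in Normal. These groups overlapped, and Ctsb had a log2 fold change of -0.04 ± 0.15 in Cisplatin against Normal (adjusted p = 0.839) and 0.10 ± 0.15 in RP against Cisplatin (adjusted p = 0.603). The part of Ctsb reads in the Fdft1 counts was not tested.

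Fdps and Fdft1 encode consecutive steps, and the ratio of their counts in a library needs no scaling, although it shows only how one changed relative to the other. The pair was chosen after both genes' values were seen, so the ratio is a description with no test. Fdft1 had 9.64, 7.93 and 8.71 counts for each Fdps count in RP, 67.4, 55.7 and 88.5 in Cisplatin and 5.43, 5.41 and 7.72 in Normal. The mean log2 ratio was 6.11 in Cisplatin and 2.61 in Normal, a difference of 3.50, and it was 3.13 in RP, a difference of -2.99 from Cisplatin. The 3 groups did not overlap in this ratio.

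Sqle, squalene epoxidase, is an oxygen-dependent and rate-limiting step. It lies on chromosome 15 (59315077 to 59331192, plus strand) and had 2.69, 2.48 and 3.43 CPM in RP, 2.94, 3.33 and 2.26 CPM in Cisplatin and 3.26, 3.70 and 4.09 CPM in Normal. The groups overlapped. The log2 fold change was -0.37 ± 0.34 in Cisplatin against Normal (adjusted p = 0.376, 95% interval -1.09 to 0.36) and 0.01 ± 0.34 in RP against Cisplatin (adjusted p = 0.987, 95% interval -0.72 to 0.74), on 19 to 35 counts per library.

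Lss, lanosterol synthase, closes the ring system of the sterols. It lies on chromosome 10 (76531588 to 76557138, plus strand) and had 1.55, 1.69 and 1.01 CPM in RP, 0.82, 0.95 and 0.48 CPM in Cisplatin and 1.57, 4.28 and 1.44 CPM in Normal. Cisplatin libraries were below both other groups on 4 to 10 counts each, so Lss passed the filter on low counts only through other libraries. Normal replicate 2 stood well above its fellows. That library also had the highest sum of 10 adipocyte markers, at 4262 CPM against 1232 and 1719 CPM in the other Normal libraries, and their part in the Lss result was not tested. Lss fell by 1.67 ± 0.58 in Cisplatin against Normal (adjusted p = 0.0263) and had a log2 fold change of 0.89 ± 0.59 in RP against Cisplatin (adjusted p = 0.232). The fall of Lss was 0.97 without Normal replicate 2 and was not called (adjusted p = 0.227). It was not called either without Cisplatin replicate 1 (0.0573) or 3 (0.0869), nor with limma-voom (0.0599).

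**Figure D2:**
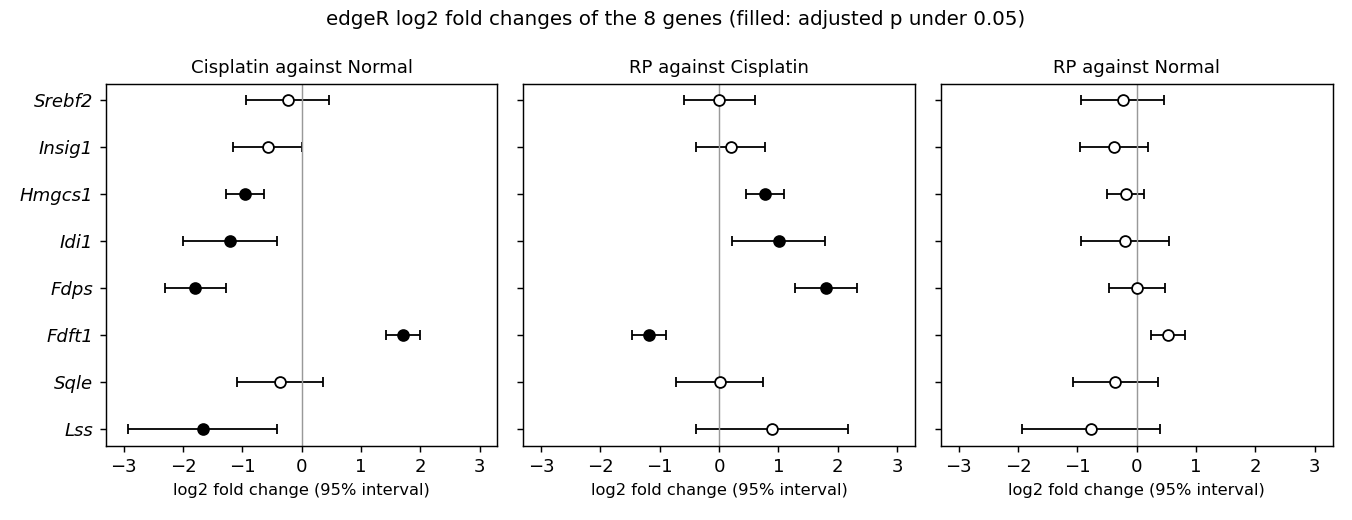
edgeR log2 fold changes (x axis) of the 8 genes (y axis) in 3 comparisons, with 95% intervals; filled points have an adjusted p under 0.05. Fdft1 is the one gene on the right in Cisplatin against Normal, at 1.71, and no gene is filled in RP against Normal.

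In RP against Normal, which asks how far muscle given both agents lay from untreated muscle, none of the 8 genes was called by edgeR's quasi-likelihood test, where 0.187% of all genes rose and 0.319% fell. At an unadjusted p under 0.05, 1 of the 8 was higher in RP, namely Fdft1. DESeq2 called Fdft1 as well (adjusted p = 0.0401), as did scaling by library size alone (adjusted p = 0.0485), while limma-voom called 0 of the 8. RP libraries were above all Normal libraries for 1 of the 8 genes, as for 9.65% of all genes, and below them for 0 of the 8, as for 9.53% of all genes. Fdps was at 9.26 ± 0.94 CPM in RP and 9.18 ± 1.06 CPM in Normal (SD, n = 3 each), with a log2 fold change of 0.01 and a 95% interval of -0.46 to 0.48. The interval for Hmgcs1 was -0.50 to 0.13, and for Lss it reached from -1.94 to 0.39 around a log2 fold change of -0.78, which was -0.08 without Normal replicate 2. These intervals leave room for sizeable differences in the genes with few counts.

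**Figure D3:**
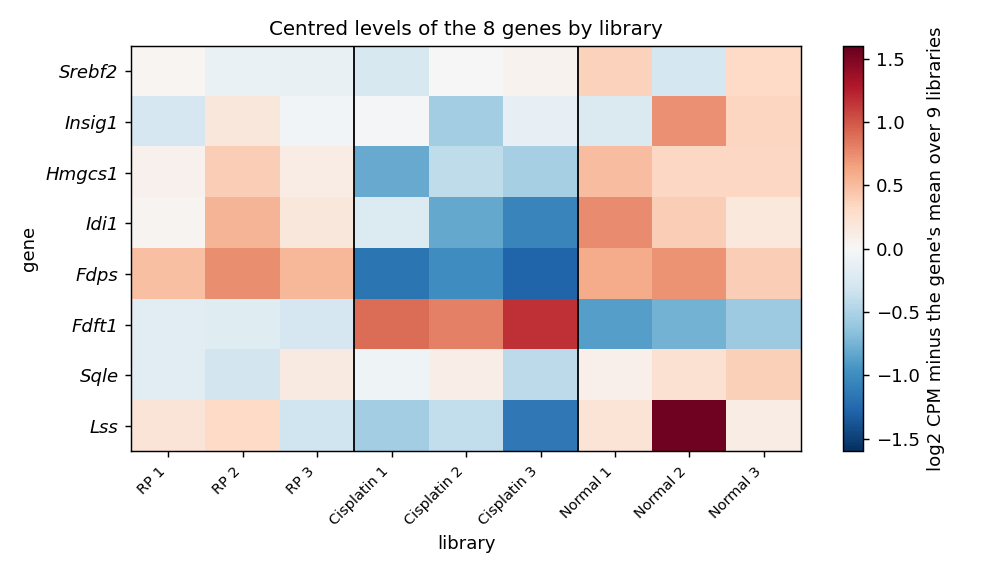
Log2 CPM of each of the 8 genes (rows) minus that gene's mean over 9 libraries, by library of RP, Cisplatin and Normal (columns); red is above the mean and blue below. The Cisplatin columns are blue for Hmgcs1, Idi1, Fdps and Lss and red for Fdft1.

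The 8 profiles over the 9 libraries were compared as log2 CPM centred on each gene's mean, by the root mean square difference. Fdft1 and Fdps were farthest apart at 1.52, and Hmgcs1 and Idi1 lay at 0.317. Srebf2 and Sqle were closest at 0.297, but each varied little about its own mean, by 0.214 and 0.245 on the same measure. Their distance exceeds either value, so it does not show that they varied together. Among 9066 named genes averaging 5 CPM or more, those nearest to Fdps were Phka1, Lmbr1 and Ldha at 0.0854 to 0.0915, and those nearest to Hmgcs1 were Pgam2, Fbxl17 and Ifngr2 at 0.0721 to 0.0799. Fdft1 lay nearest to Eci2, Psma6 and Cog1, at 0.108 to 0.131. The nearest to Idi1 were Igfbp7, Tuba1a and Cd34 (0.152 to 0.154), and to Lss Slc7a10, Pfkl and Fabp4 (0.232 to 0.291). Srebf2 lay nearest to Mtif2, Zzz3 and Irgq (0.1 to 0.12), Sqle to Arl5b, Rsph3a and Ptma (0.139 to 0.148), and Insig1 to Med23, Erap1 and Ehbp1 (0.178 to 0.193). The mean profile of the 8 was nearest to Itm2b, Itfg1 and Sptan1, at 0.0800 to 0.0899.

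Across the whole route from acetyl-CoA to cholesterol genes moved in both directions. Of 21 sterol synthesis enzymes tested, 6 of them among the 8 genes, 11 fell and 3 rose in Cisplatin against Normal, where 28.2% of all genes fell and 26.3% rose, with a median log2 fold change of -0.92 against -0.08 over all genes. With 1 library left out the fallen numbered 8 to 12 and the risen 2 to 3. Besides Fdft1 the risers were Mvd, mevalonate diphosphate decarboxylase, at 0.96 ± 0.27 (adjusted p = 0.00798), and Acat2, the cytosolic thiolase of the first step, at 0.44 ± 0.14 (adjusted p = 0.0179). Among the fallen enzymes, Dhcr7, which makes cholesterol from its last precursor, had 25, 22 and 18 counts in RP, 0, 4 and 1 counts in Cisplatin and 21, 25 and 41 counts in Normal. Dhcr7 passed the filter on low counts only through its RP and Normal libraries, as did Lss, also among the fallen. Dhcr7 fell by 4.17 ± 0.69 in Cisplatin against Normal (adjusted p = 0.000203) and rose by 3.52 ± 0.70 in RP against Cisplatin (adjusted p = 0.00105). Cyp51, the lanosterol demethylase, fell by 1.92 ± 0.44 (adjusted p = 0.00218) and rose by 1.69 ± 0.44 (adjusted p = 0.00591) in the same comparisons. Pmvk, phosphomevalonate kinase, fell by 1.03 ± 0.26 in Cisplatin against Normal (adjusted p = 0.0042).

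In RP against Cisplatin 10 of the 21 enzymes rose and 3 fell, where 24.6% of all genes rose and 24.2% fell, with a median of 0.66 against 0.07 over all genes. The risen numbered 6 without Cisplatin replicate 2 and 5 without RP replicate 2, and the fallen 1 without Cisplatin replicate 3, without any 1 of the RP libraries, or with library size as the only scaling. In RP against Normal edgeR called 0 of the 21, where 0.187% of all genes rose and 0.319% fell. At an unadjusted p under 0.05 edgeR gave 1 of the 21, DESeq2 called 1 and limma-voom 0.

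**Figure D4:**
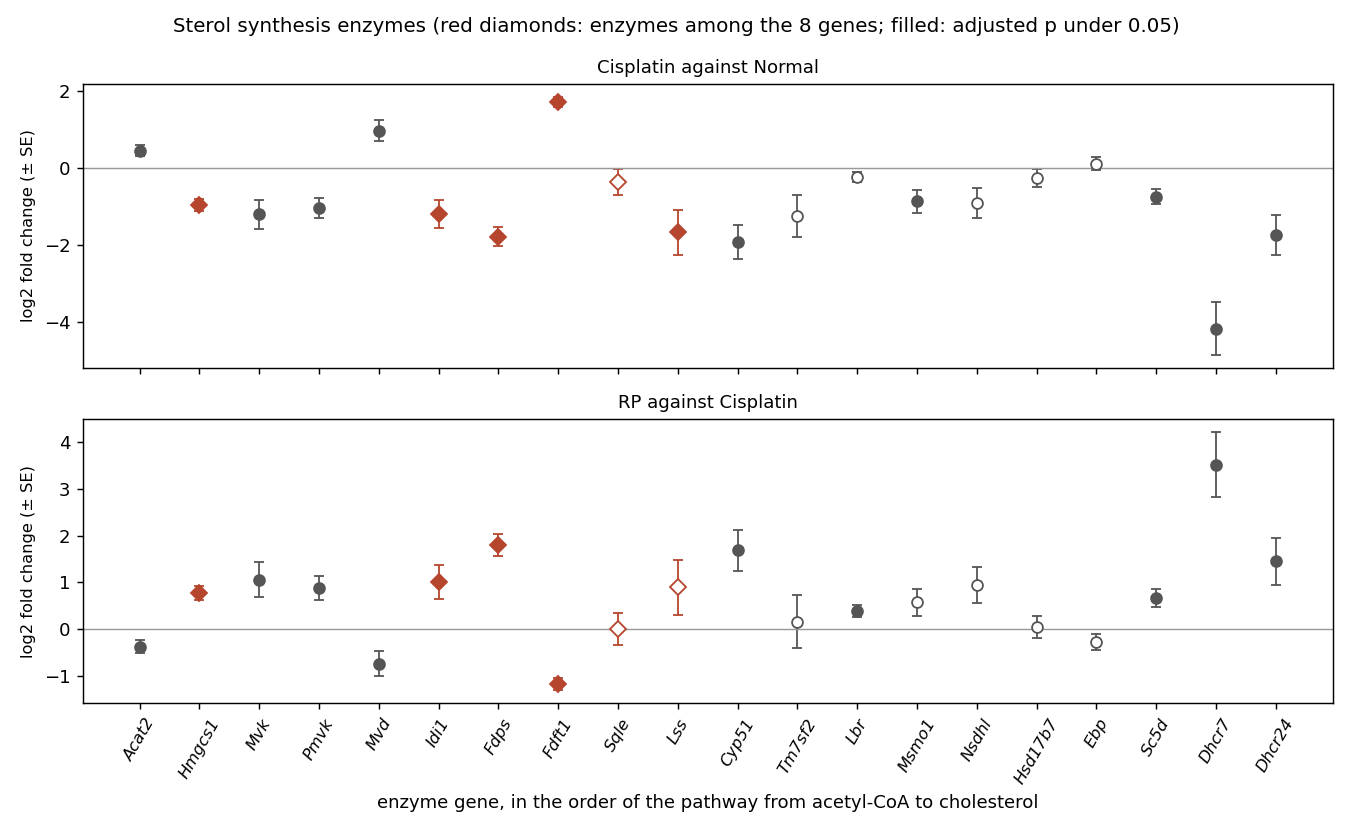
edgeR log2 fold changes ± SE (y axis) of sterol synthesis enzyme genes in their approximate pathway order (x axis; 1 of the 21 is not drawn), for Cisplatin against Normal above and RP against Cisplatin below; red diamonds are enzymes among the 8 genes and filled points have an adjusted p under 0.05. In Cisplatin against Normal 11 filled points lie below 0 and 3 above it, and Dhcr7 is lowest at -4.17.

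Of the other genes that process SREBPs or sense sterols, 4 of 9 fell in Cisplatin against Normal, where 28.2% of all genes did, and 0 rose, where 26.3% did. The counts were the same by edgeR's adjusted p and at an unadjusted p under 0.05, and DESeq2 and limma-voom gave the same counts. The fallen numbered 3 to 4 when 1 library was left out. Srebf1, whose protein SREBP1 drives lipid synthesis, averaged 25.4 ± 3.20 CPM in RP, 12.3 ± 1.77 CPM in Cisplatin and 27.0 ± 3.85 CPM in Normal (SD, n = 3 each). Cisplatin lay below both other groups, which overlapped. Srebf1 fell by 1.14 ± 0.18 in Cisplatin against Normal (adjusted p = 0.000134) and rose by 1.05 ± 0.18 in RP against Cisplatin (adjusted p = 0.000322). Insig2, the second INSIG gene, fell by 0.70 ± 0.14 (adjusted p = 0.000919) and rose by 0.69 ± 0.14 (adjusted p = 0.00118). In RP against Cisplatin 2 of the 9 rose, a share near the 24.6% of all genes, and 0 fell, where 24.2% did. Without Normal replicate 2, 1 of the 9 rose in Cisplatin against Normal.

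Of 12 genes of sterol uptake and trafficking 2 rose and 4 fell in Cisplatin against Normal, where 26.3% of all genes rose and 28.2% fell, so the list as a whole lay near the background. Npc1, which exports cholesterol from lysosomes, had 101, 73.0 and 92.1 CPM in RP, 453, 558 and 672 CPM in Cisplatin and 47.6, 66.0 and 47.5 CPM in Normal. The 3 groups did not overlap. Npc1 rose by 3.38 ± 0.20 in Cisplatin against Normal (adjusted p = 5.36e-08) and fell by 2.66 ± 0.19 in RP against Cisplatin (adjusted p = 3.41e-07). Scarb1, a lipoprotein receptor, fell by 1.27 ± 0.24 (adjusted p = 0.000559), and Lrp1, another receptor, by 1.80 ± 0.27 (adjusted p = 0.000104) in Cisplatin against Normal. Stard3, a sterol transfer protein of late endosomes, had 31.3, 31.4 and 32.6 CPM in RP, 13.8, 10.6 and 13.7 CPM in Cisplatin and 15.8, 16.2 and 14.1 CPM in Normal. By edgeR's adjusted test it was the 1 gene of the 12 called in RP against Normal, where it rose by 1.05 ± 0.16 (adjusted p = 0.00818). Of all genes 0.187% rose and 0.319% fell in RP against Normal. DESeq2 called 2 of the 12 there, and 2 had an unadjusted p under 0.05 in edgeR. In Cisplatin against Normal the fallen numbered 2 without Normal replicate 2 or Cisplatin replicate 1, and the risen 1 without Normal replicate 3 or Cisplatin replicate 2 or with library size alone.

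Many markers of muscle fibres and of other cell types fell in Cisplatin, as did 4 of the 8 genes, while Fdft1 rose. As background for the counts below, 28.2% of all genes fell and 26.3% rose in Cisplatin against Normal. In RP against Cisplatin 24.6% of all genes rose and 24.2% fell. Of the 10 fibre markers 5 fell and 1 rose in Cisplatin against Normal, with every Cisplatin sum below every Normal sum. Of the same markers 5 rose and 0 fell in RP against Cisplatin. All 10 fibroblast markers fell in Cisplatin against Normal, and their sum was 2219 to 3374 CPM in RP, 395 to 782 CPM in Cisplatin and 3582 to 5777 CPM in Normal. All 10 adipocyte markers fell as well, with sums of 1966 to 2446 CPM in RP, 379 to 837 CPM in Cisplatin and 1232 to 4262 CPM in Normal. Of 12 Schwann cell markers, myelin-forming cells that make much cholesterol, 8 fell, with sums of 219 to 408 CPM in RP, 59.8 to 147 CPM in Cisplatin and 229 to 389 CPM in Normal. Macrophage markers fell in 9 of 10 cases and rose in 1, with sums of 118 to 186 CPM in RP, 49.4 to 90.9 CPM in Cisplatin and 228 to 297 CPM in Normal, and of 10 endothelial markers 6 fell and 1 rose. In RP against Cisplatin all 10 fibroblast, all 10 adipocyte and 8 of the Schwann cell markers rose, while 7 macrophage markers rose and 1 fell and 5 endothelial markers rose and 1 fell. No marker of these 5 lists was at 0 throughout a group. The 5 erythroid markers tested fell in Cisplatin against Normal, with sums of 64.9 to 410 CPM in RP, 34.0 to 60.4 CPM in Cisplatin and 4159 to 8992 CPM in Normal, and Slc4a1 was at 0 in Cisplatin. The part of these cell types in the fall of Hmgcs1, Idi1, Fdps and Lss was not tested, and in bulk muscle fewer cells of a type and less RNA per cell cannot be told apart.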

How the data were processed

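The deposited files hold unnormalised counts by gene symbol, 1 file for each of 9 libraries, made per the labels' protocols from 500 ng of total RNA with a Lexogen Quant-Seq 3′ kit. Bowtie2, edgeR and the mm10 build are named in the submitters' processing notes; no version is stated there, nor which annotation, counting tool or strand option was used. Of 23282 rows, 79 sharing 35 symbols were summed.

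Tests used edgeR 4.0.16 in R 4.3.3: filterByExpr by group, TMM scaling, then glmQLFit over the 9 libraries (a coefficient for each group), glmQLFTest and Benjamini-Hochberg adjustment over 12859 genes, called at an adjusted p under 0.05. SE is the log2 fold change over the root of F. Scripts were tested on simulated data. With 3 libraries a group, replicate pairs differed by more than counting error (chi-square per degree of freedom 11.7 to 30.5), so none was merged. Depth was 8196030 to 10678342 counts.

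Alternatives were RLE or library-size scaling, no filter, DESeq2 1.42.0, limma-voom (limma 3.58.1), a filter of 5 CPM in 3 libraries, a replicate block, only the 2 groups compared, no Rn45s, and leaving out each library. The genes and lists were chosen with earlier results of these data known. Named genes were the 8 members, up to 4 called genes per list and comparison by p, and the 3 nearest profiles (log2 CPM, prior count 2); Mvd, Acat2 and Ctsb were added after their values were seen. Single values of 1 sterol enzyme and 1 erythroid marker are not reported here. Gene positions are from GENCODE M21 on GRCm38, the assembly behind mm10, and promoter windows are from RefSeq. Figures used matplotlib 3.10.9 and Python 3.11.15.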

Additional observations from a re-analysis of the deposited data

How the results depend on the processing

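Over 18 alternatives the fold changes of the 8 genes kept their call, or lack of one, in 405 of the values computed, lost a call in 11 and gained one in 3. No called value changed sign, but the uncalled values of Sqle (-0.15 to 0.14) and Srebf2 (-0.10 to 0.15) in RP against Cisplatin and of Fdps (-0.07 to 0.10) in RP against Normal lay on both sides of 0; those that changed concern Idi1, Lss, Insig1 and Fdft1 and are given with them. Hmgcs1, Fdps and Fdft1 kept their calls in Cisplatin against Normal and in RP against Cisplatin under all 18. With at least 5 CPM in 3 libraries only 4 of the 8 genes were tested and 2 fell in Cisplatin against Normal. In RP against Normal 1 gene of the 8 rose with library size alone and 1 with DESeq2, against 0. Over all genes that comparison gave 24 risen and 41 fallen: 24 fell with library size alone, 123 rose and 170 fell with no filter, and 103 rose and 126 fell with DESeq2. Leaving out 1 library gave 8 to 59 risen and 14 to 62 fallen; the cause was not tested. Scaling by library size alone moved the median log2 fold change of all genes in RP against Cisplatin to 0.21, against 0.07. With the replicate number as a block, 1 of the 8 rose and 4 fell in Cisplatin against Normal and 3 rose and 1 fell in RP against Cisplatin, the counts without the block. Same-numbered libraries deviated together in 2 of 9 pairs (r over 0.1, range -0.12 to 0.16), and 4 of 9 libraries matched their own number best. Those 2 pairs, Cisplatin 2 with RP 2 (0.158) and Cisplatin 3 with RP 3 (0.154), had the highest r of all pairs between groups. Whether the numbers pair the samples cannot be told from these values. Lss, Idi1, Sqle and Srebf2 had few counts and wide intervals, and the parts of depth and of spread between libraries in this were not tested.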

Other observations

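Of 14 genes tested of the non-sterol isoprenoid branch 4 rose and 2 fell in Cisplatin against Normal, where 26.3% of all genes rose and 28.2% fell. In RP against Cisplatin 1 rose and 4 fell, where 24.6% of all genes rose and 24.2% fell. The risen in the first comparison and the fallen in the second lay near these shares. Rabggtb, a subunit of the enzyme that attaches geranylgeranyl groups to Rab proteins, rose by 1.48 ± 0.15 in Cisplatin against Normal (adjusted p = 4.33e-06) and fell by 1.13 ± 0.15 in RP against Cisplatin (adjusted p = 5.25e-05). Ggps1, geranylgeranyl diphosphate synthase, rose by 0.73 ± 0.18 (adjusted p = 0.00332) and fell by 0.76 ± 0.18 (adjusted p = 0.00273) in the same comparisons. Coq2, an enzyme of ubiquinone synthesis, fell by 0.60 ± 0.14 (adjusted p = 0.00268) and rose by 0.81 ± 0.14 (adjusted p = 0.000364). Leaving out Normal replicate 3, Cisplatin replicate 2 or Cisplatin replicate 3 left 1 fallen gene of the branch in Cisplatin against Normal, and 2 rose in RP against Cisplatin without Cisplatin replicate 1 or RP replicate 3 or with the replicate block.

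Lists of sterol efflux and oxidation are given as values, with the same shares of all genes as their background. Of 8 genes of the LXR receptors and their targets 3 rose and 1 fell in Cisplatin against Normal, with a median log2 fold change of -0.04 against -0.08 over all genes. Nr1h2, the LXR beta gene, rose by 1.41 ± 0.16 (adjusted p = 1.07e-05), and Apoe, a lipid carrier, fell by 1.56 ± 0.34 (adjusted p = 0.00164). The fallen numbered 2 without Normal replicate 3 or Cisplatin replicate 1, with no filter or with at least 5 CPM in 3 libraries. In RP against Cisplatin 2 of the 8 rose and 2 fell, with 1 risen without Cisplatin replicate 3 or RP replicate 3. Of 7 genes that esterify, release or oxidise sterols 2 rose, a share near the 26.3% of all genes, and 3 fell in Cisplatin against Normal, Cyp27a1, a sterol hydroxylase of mitochondria, rising by 1.20 ± 0.16 (adjusted p = 3.9e-05) and Lipa, the lysosomal acid lipase, falling by 1.04 ± 0.23 (adjusted p = 0.00178). Only 1 of the 7 rose once Normal replicate 2 or 3 or Cisplatin replicate 1 or 2 was left out, with limma-voom, with at least 5 CPM in 3 libraries, and with the 2 compared groups fitted alone. In RP against Cisplatin 2 of the 7 rose and 2 fell. Without RP replicate 2, 1 of them rose, and 1 fell without Normal replicate 1 or 3, Cisplatin replicate 1 or 2, or RP replicate 1 or 3, with the replicate block, with limma-voom, with library size alone or with at least 5 CPM in 3 libraries.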
